A study of Homo sapiens with 3 samples.

Results

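The ATP-binding cassette (ABC) transporter family was examined by RNA sequencing of MIAPaCa-2 cells, a line established from human pancreatic cancer. Members were the listed genes whose symbol is ABC followed by a subfamily letter from A to G and a number, and 29 of the 14949 listed genes met this rule. In 26 of them the symbol stood alone in its cell, and in 3 (ABCA3, ABCC5 and ABCE1) a gene identifier followed the symbol. The drug efflux group held the 12 listed members of ABCB, ABCC and ABCG2, and the rest of the family held 17. By subfamily there were 9 ABCA, 5 ABCB, 6 ABCC, 3 ABCD, 1 ABCE, 3 ABCF and 2 ABCG genes. The annotation holds 45 protein-coding symbols of this form, and 16 had no row used here. Among these were ABCB1, which encodes the drug pump P-glycoprotein, and ABCG1, which exports sterols.

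There were 3 libraries with 1 per group, all from MIAPaCa-2 cells carrying a short hairpin RNA. The sh-CTL library came from untreated cells with a control hairpin. The sh-METTL3 library came from untreated cells with a hairpin against METTL3, the catalytic subunit of the enzyme that deposits N6-methyladenosine (m6A) on mRNA. The sh-CTL + PLK1i library came from control-hairpin cells exposed to NMS-P937, an inhibitor of the mitotic kinase PLK1, at 80 nM for 24 h. The knockdown cells were a gift to the laboratory, and the sources used here do not say whether they were a clone. The labels record no treatment for the other 2 libraries, and a vehicle is not given. The libraries are called control, knockdown and inhibitor library below, and values given in threes are in that order.

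ABC proteins bind and hydrolyse ATP, and most use it to carry a substrate across a membrane. Members of ABCC, ABCG2 and ABCB1 export drugs, conjugates and metabolites and are known from drug-resistant tumour cells, whereas the ABCB genes listed here encode proteins of mitochondria and lysosomes. ABCA proteins move lipids, ABCD proteins act in peroxisomes and lysosomes, and ABCE1 and the ABCF proteins have no membrane-spanning part and act on ribosomes. The comparison of drug efflux members with the rest therefore sets export pumps and organelle proteins against lipid carriers and translation factors.

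Without replicates, no difference below could be set against the spread between cultures, and no p-value was computed. Intervals in parentheses are 95% counting intervals (exact Clopper-Pearson) of the ratio of reads between 2 libraries on the log2 scale. They cover counting error only and compare libraries, not conditions. A log2 change is the difference of log2(normalized count + 1), and both comparisons with sh-CTL share that library. In bulk RNA, fewer cells of a type and less RNA per cell cannot be told apart. The reads in listed genes numbered 37449329 in the control library, 46944898 in the knockdown and 47727518 in the inhibitor library, of which 54849, 62906 and 69374 fell in the family. METTL3, the targeted gene, had 3378, 1781 and 4223 reads in the same order, which put it at 41.9% of sh-CTL in sh-METTL3. Of the epithelial markers, KRT8, KRT18 and KRT19 were listed and EPCAM and CDH1 had no row used here. No pancreatic acinar, endocrine or endothelial marker was listed.

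The family spanned a wide range of levels, from 9.71 to 2287 in sh-CTL. Levels between genes were compared as normalized counts per kb of the Ensembl canonical transcript. ABCE1, which splits ribosomes after termination so that they can be reused, was highest in each library, at 2287 in the control library, 2272 in the knockdown and 2592 in the inhibitor library. ABCF1, a factor of translation initiation, came next in each library with 1434, 1592 and 1565 normalized counts per kb. ABCF2 (1266, 1120 and 1327) and ABCF3 (1256, 1113 and 1242) stood close to each other in every library. ABCD3, a peroxisomal importer of branched and long-chain acyl groups, completed the 5 highest in sh-CTL with 1142 normalized counts per kb, against 1372 in the knockdown and 1142 in the inhibitor library. These 5 members all belonged to the rest of the family and not to the drug efflux group.

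The highest members of the drug efflux group per kb in sh-CTL were ABCC2 and ABCC5. ABCC2, an exporter of glucuronide and glutathione conjugates, had levels of 873 in the control library, 585 in the knockdown and 747 in the inhibitor library. ABCC5, an exporter of cyclic nucleotides and nucleotide analogues, had 848, 748 and 886 normalized counts per kb. ABCC2 was thus above ABCC5 in sh-CTL and below it in the other libraries, where ABCB10, with 760, 690.4 and 751 normalized counts per kb, stood above ABCC2 as well. At the low end were ABCA4, the retinal flippase of photoreceptors, at 9.71, 7.08 and 9.30, and ABCG2, the breast cancer resistance protein, at 13.6, 9.04 and 14.9. The median level per kb was 301, 301 and 291 for the drug efflux group and 199, 258 and 208 for the rest. In the rest the middle gene was ABCA8 in sh-CTL and ABCA10 in the other libraries, so this median does not follow 1 gene. Summed levels per kb were 4733, 4136 and 4494 for the drug efflux group and 9619, 9269 and 9956 for the rest.

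**Figure D1:**
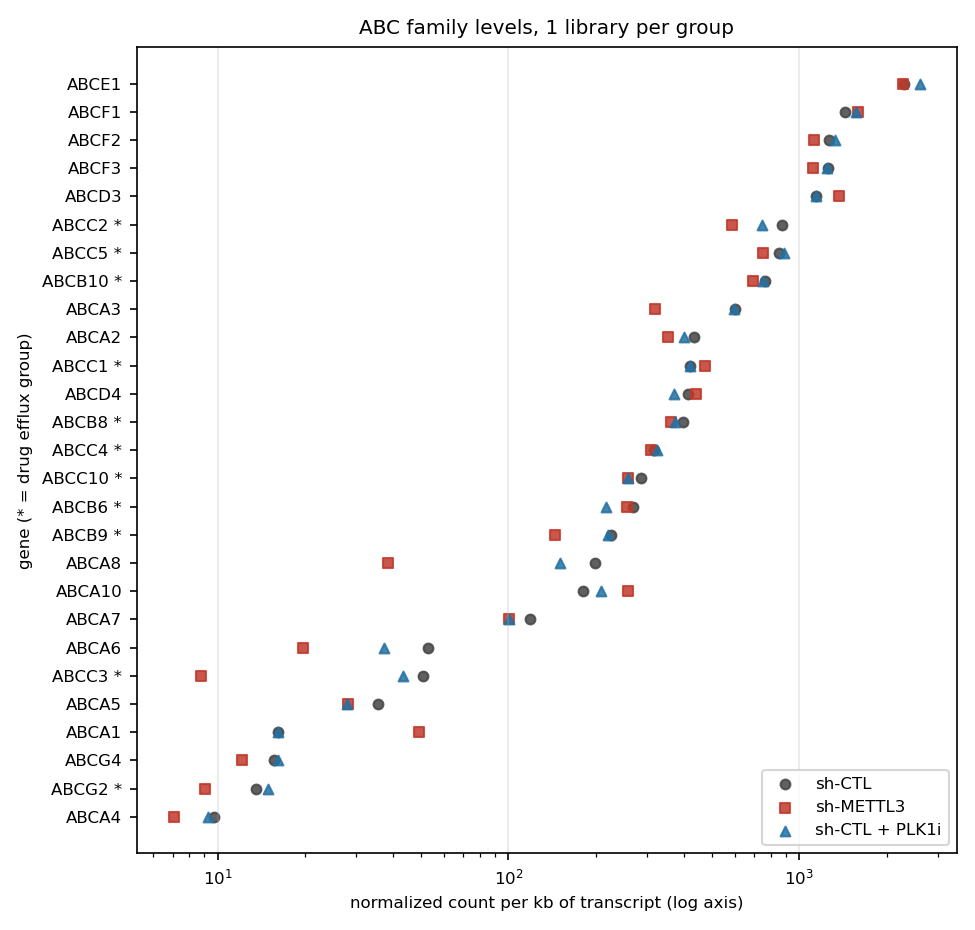
Level of 27 ABC genes as normalized counts per kb of transcript on a log axis, ordered by sh-CTL, with 1 point per library and asterisks on the drug efflux group. ABCE1 is highest at 2287 in sh-CTL, ABCA4 lowest at 9.71, and the sh-METTL3 squares stand well apart for ABCA8, ABCC3, ABCA6 and ABCA1.

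Added up, the family held 63959 normalized counts in the control library, 58307 in the knockdown and 63867 in the inhibitor library. The drug efflux group took 37.5% (37.1 to 37.9) of the family's reads in the control library, 36.0% (35.6 to 36.3) in the knockdown and 35.8% (35.4 to 36.2) in the inhibitor library, with exact binomial intervals. The share was highest in sh-CTL, and the intervals of the other libraries overlapped. The ABCA subfamily took 17.8%, 14.3% and 16.7% of the family's reads in the same order and was lowest in sh-METTL3. ABCE1 with the ABCF genes took 35.3%, 37.8% and 38.3%.

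The first question was which members differ where METTL3 is reduced. ABCA1, the exporter of cholesterol and phospholipids to apolipoprotein A-I, was 3.03-fold higher in sh-METTL3. ABCC3, ABCA8 and ABCA6 were 5.71-fold, 5.15-fold and 2.67-fold lower. The other 25 members differed by less than 2-fold. At least 2-fold higher was 1 of 29 members, where 3.42% of all listed genes passed, and at least 2-fold lower were 3 of 29, where 2.94% passed. At 1.5-fold, ABCA1 was the sole higher member, against 7.76% of all listed genes. ABCA3 and ABCB9 joined the lower ones to make 5 of 29, against 6.70% of all listed genes. The members' log2 changes had a median of -0.17, with 8 above 0 and 21 below, and the median of all listed genes was 0.00.

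ABCA1 (ENSG00000165029; GRCh37 chromosome 9, 107543287 to 107690436, minus strand) had normalized counts of 168 in the control library, 511 in the knockdown and 168 in the inhibitor library, from 144, 551 and 183 reads. Its level was high in sh-METTL3 and nearly the same in the other libraries. The log2 change was 1.60 (1.34 to 1.88) in sh-METTL3 and 0.00 (-0.32 to 0.33) with the inhibitor. With 49.1 normalized counts per kb in sh-METTL3 against 16.1 in sh-CTL, it moved from place 26 to place 22 among the 29 members. The genes around it on chromosome 9 moved less, with log2 changes of 0.56 for NIPSNAP3A, -0.16 for NIPSNAP3B and 0.35 for SLC44A1 in sh-METTL3.

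Promoter sequence was taken from RefSeq (GRCh38.p14) for 23 of the 29 members as the 250 bases before the annotated start site. Those with no entry included ABCA4, ABCA8, ABCC1 and ABCC3. The promoters of 4 of the 6 members that differed by at least 1.5-fold are shown, 5′ to 3′ on the minus strand, so that the start regions of members set apart by their changes can be compared. Capitals mark matches on either strand to the GC box GGGCGG, the E-box CACGTG, the CCAAT box, the TATA box TATAAA and the core TGACNNNGC of the antioxidant response element.
ABCA1 (chr9:104928156-104928405): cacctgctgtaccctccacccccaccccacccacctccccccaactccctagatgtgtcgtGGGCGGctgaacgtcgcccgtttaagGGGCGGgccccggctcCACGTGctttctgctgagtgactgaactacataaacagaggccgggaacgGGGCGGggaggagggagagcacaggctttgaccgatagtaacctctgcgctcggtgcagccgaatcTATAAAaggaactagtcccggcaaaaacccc
ABCA3 (chr16:2340729-2340978): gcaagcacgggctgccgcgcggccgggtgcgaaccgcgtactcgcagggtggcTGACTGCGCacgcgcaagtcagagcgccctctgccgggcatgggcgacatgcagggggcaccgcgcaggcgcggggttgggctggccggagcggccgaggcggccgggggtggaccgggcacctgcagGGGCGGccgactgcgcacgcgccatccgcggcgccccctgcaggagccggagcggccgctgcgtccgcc
ABCA6 (chr17:69141896-69142145): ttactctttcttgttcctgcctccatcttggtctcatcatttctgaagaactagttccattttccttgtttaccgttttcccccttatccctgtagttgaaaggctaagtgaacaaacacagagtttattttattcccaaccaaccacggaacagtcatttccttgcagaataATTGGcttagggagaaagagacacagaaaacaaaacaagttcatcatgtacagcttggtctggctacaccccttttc
ABCB9 (chr12:122966464-122966713): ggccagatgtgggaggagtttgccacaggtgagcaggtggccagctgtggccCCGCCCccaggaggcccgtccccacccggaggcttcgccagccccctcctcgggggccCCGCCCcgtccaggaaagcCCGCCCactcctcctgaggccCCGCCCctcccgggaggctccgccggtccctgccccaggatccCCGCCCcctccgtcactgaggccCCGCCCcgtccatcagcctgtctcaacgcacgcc

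The ABCA1 window holds 3 GC boxes, an E-box beginning at -147 and a TATA box beginning at -31 from the start site. ABCA3 is the richest of the 4 in G and C, at 79.2%, with 1 GC box and 1 antioxidant response core. ABCA6 is 40.8% G and C, and its only match is a CCAAT box, which reads ATTGG on the strand shown. ABCB9 holds 6 GC boxes, each on the other strand, so that it reads CCGCCC on the strand shown. The members that were lower thus had no motif of these 5 in common, and ABCA8 and ABCC3 could not be compared.

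Over the 23 members with an entry, a GC box was found in 16 (69.6%), against 42.6% of all 35116 promoters. The antioxidant response core was found in 6 (26.1%) against 10.9% of all promoters, and the E-box in 3 (13.0%) against 6.34%. CCAAT was found in 5 (21.7%) against 32.0%, and TATAAA in 4 (17.4%) against 10.7%. The median G and C content was 65.2% in members and 58.0% in all promoters, and ran from 23.6% in ABCA10 to 80.4% in ABCC4. It was 64.4% in the 9 drug efflux members with an entry and 66.6% in the other 14. These matches describe the letters of the windows and not bound sites. The 35116 promoters were not limited to listed genes, and shares over listed genes alone are not given here.

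ABCA8 (ENSG00000141338; GRCh37 chromosome 17, 66863430 to 66951533, minus strand) had normalized counts of 1193 in the control library, 231 in the knockdown and 906 in the inhibitor library, from 1023, 249 and 984 reads. It was lowest in sh-METTL3 and intermediate with the inhibitor. The log2 change was -2.36 (-2.58 to -2.17) in sh-METTL3 and -0.40 (-0.52 to -0.27) with the inhibitor. ABCA6 (ENSG00000154262; chromosome 17, 67074843 to 67138036, minus strand) is the next listed gene of the cluster, beyond ABCA9, which had no row used here. ABCA6 had 281, 105 and 198 normalized counts, from 241, 113 and 215 reads. Its order was the same, with sh-METTL3 lowest, and the log2 changes were -1.42 (-1.76 to -1.10) and -0.50 (-0.78 to -0.23). Both genes encode lipid carriers of the ABCA subfamily whose substrates are less well known than that of ABCA1.

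These genes stand in a cluster of ABCA genes on chromosome 17, and the cluster did not move as a block. ABCA10 (67143355 to 67240987) had 931, 1671 and 1359 reads, a log2 change of 0.51 (0.40 to 0.63) in sh-METTL3 and 0.20 (0.08 to 0.33) with the inhibitor. ABCA5 (67240452 to 67323385) had 252, 250 and 250 reads, with log2 changes of -0.34 (-0.60 to -0.08) and -0.35 (-0.61 to -0.09). Along the cluster the sh-METTL3 changes thus ran from ABCA8 and ABCA6 below 0 through ABCA10 above 0 to ABCA5 below 0. ABCA10 and ABCA5 overlap by 536 bases on the same strand, so reads from that stretch are uncertain. Beyond ABCA8, the nearest other listed gene with a mean of at least 50 normalized counts, ENSG00000267250, had a log2 change of 1.46 in sh-METTL3, and WIPI1 and ARSG had 0.99 and 0.89. PRKAR1A, with 10652 reads in sh-CTL, had -0.11. The start sites of ENSG00000267250, PRKAR1A, WIPI1 and ARSG lay at -158, -444, -498 and -696 kb from that of ABCA8. ENSG00000267250 had 57 reads in sh-CTL. MAP2K6, on the side of ABCA5 and below that mean, had -0.98 from 26 reads in sh-CTL. The 2 members lowest in this region thus lay between ENSG00000267250 and ABCA10, both higher in the same library, while genes farther out went either way.

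**Figure D2:**
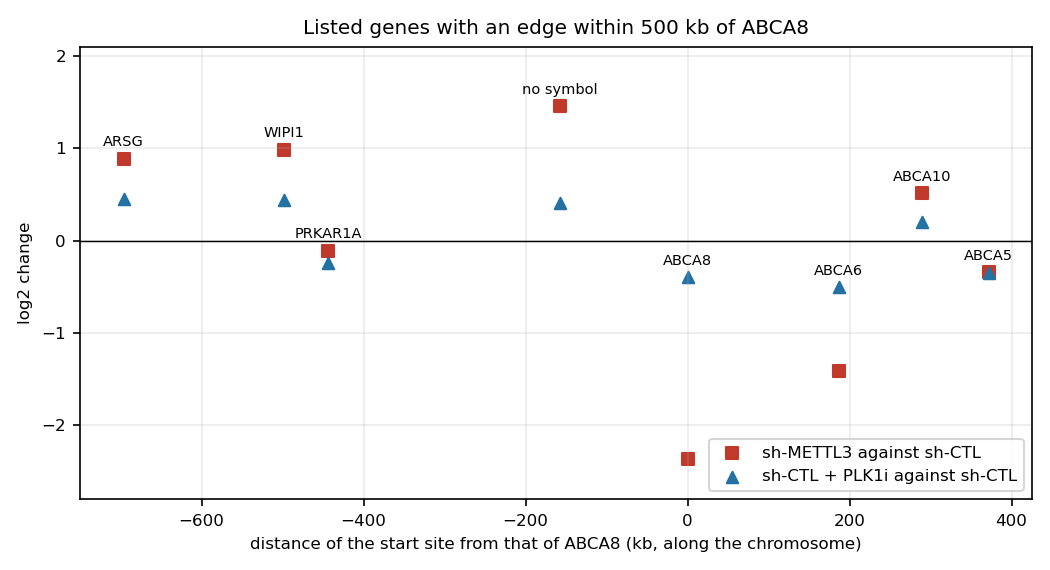
Log2 change against sh-CTL of listed genes with a mean of at least 50 normalized counts and an edge within 500 kb of ABCA8 on chromosome 17, by the distance of their start sites in kb, with squares for sh-METTL3 and triangles for sh-CTL + PLK1i (1 library each). ABCA8 (-2.36) and ABCA6 (-1.42) lie below 0 in sh-METTL3, between a gene without a symbol at 1.46 and ABCA10 at 0.51.

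ABCA3 (ENSG00000167972; GRCh37 chromosome 16, 2325882 to 2390747, minus strand), which loads surfactant phospholipids into lamellar bodies in the lung, had 3967 normalized counts in the control library, 2105 in the knockdown and 3932 in the inhibitor library, from 3402, 2271 and 4271 reads. The sh-METTL3 library was low and the other libraries were alike. Its log2 change of -0.91 (-0.99 to -0.84) lay just inside the 2-fold limit, and the change in sh-CTL + PLK1i was -0.01 (-0.08 to 0.05). Among the ABCA genes it was the most abundant per kb in sh-CTL, and in sh-METTL3, at 319 normalized counts per kb, it stood below ABCA2 at 352. Among its 39 neighbours within 500 kb with a mean of at least 50 normalized counts, the median log2 change in sh-METTL3 was -0.09.

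The remaining ABCA genes differed less. ABCA2, a lipid carrier of lysosomes, had 3008, 3079 and 3523 reads and log2 changes of -0.30 (-0.37 to -0.22) and -0.11 (-0.18 to -0.04). ABCA7, a phospholipid exporter, had 694, 740 and 744 reads and a log2 change of -0.24 in both comparisons. ABCA4 had 61, 56 and 74 reads and a log2 change of -0.45 in sh-METTL3 with an interval that included 0. Over the 9 ABCA genes the median log2 change in sh-METTL3 was -0.34, with 7 below 0, and the median size of change without regard to sign was 0.51, against 0.18 in all listed genes.

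In the drug efflux group the median log2 change in sh-METTL3 was -0.14, with 2 members above 0 and 10 below, and in the rest it was -0.18, with 6 above and 11 below. At least 2-fold lower were 1 of 12 drug efflux members and 2 of 17 others, and at least 2-fold higher were 0 of 12 and 1 of 17, where 2.94% of all listed genes were lower and 3.42% higher. The groups overlapped over most of their range, from -2.51 to 0.17 in the drug efflux group and from -2.36 to 1.60 in the rest. Without the 5 ABCB genes of mitochondria and lysosomes, the 7 remaining efflux pumps had a median of -0.18.

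ABCC3 (ENSG00000108846; GRCh37 chromosome 17, 48712138 to 48769614, plus strand), which exports bile salts and glucuronides across the basolateral membrane, had 290 normalized counts in the control library, 50.1 in the knockdown and 247 in the inhibitor library, from 249, 54 and 268 reads. It was low in sh-METTL3 alone. The log2 change was -2.51 (-2.99 to -2.11) in sh-METTL3 and -0.23 (-0.49 to 0.02) with the inhibitor, and its place among the 29 members by level per kb went from 24 to 28 in sh-METTL3. The 17 neighbours of ABCC3 within 500 kb with a mean of at least 50 normalized counts had log2 changes between -0.60 and 0.37, with a median of -0.04. Below that mean, COL1A1 had -2.63 from 34, 6 and 36 reads, MYCBPAP had 0.04 and TOB1-AS1 had 0.72.

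ABCC2 had 4349 reads in the control library, 3664 in the knockdown and 4709 in the inhibitor library. It was lowest in sh-METTL3 after normalization, with log2 changes of -0.58 (-0.64 to -0.51) and -0.23 (-0.29 to -0.17). ABCC1, the exporter of glutathione conjugates for which the ABCC pumps were named multidrug resistance proteins, had 2351, 3318 and 2967 reads and was slightly higher in sh-METTL3, at 0.17 (0.09 to 0.24), with -0.01 (-0.08 to 0.07) in sh-CTL + PLK1i. ABCC4, an exporter of cyclic nucleotides and prostaglandins, had 1591, 1959 and 2059 reads and log2 changes of -0.03 (-0.13 to 0.06) and 0.03 (-0.06 to 0.13). The ABCC genes thus differed among themselves, with ABCC3 and ABCC2 lower, ABCC1 a little higher and ABCC4 within counting error.

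ABCC5 had 4212, 4670 and 5573 reads and log2 changes of -0.18 (-0.24 to -0.12) in sh-METTL3 and 0.06 with the inhibitor. ABCC10, a pump of taxanes and other lipophilic drugs, had 1230, 1406 and 1410 reads and a log2 change of -0.14 in both comparisons. ABCG2 had 49, 41 and 68 reads. At this depth no change of ABCG2 was detectable against sh-CTL, since the log2 changes of -0.58 (-1.22 to 0.04) and 0.13 (-0.42 to 0.69) both had intervals that included 0.

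Of the ABCB genes, ABCB9, the lysosomal peptide transporter (ENSG00000150967; GRCh37 chromosome 12, 123405498 to 123466196, minus strand), differed most. It had 786 normalized counts in the control library, 502 in the knockdown and 766 in the inhibitor library, from 674, 542 and 832 reads, and was low in sh-METTL3 alone. The log2 changes were -0.64 (-0.81 to -0.48) and -0.04 (-0.19 to 0.11). It overlaps OGFOD2 and ARL6IP4 on the other strand, whose log2 changes in sh-METTL3 were -0.09 and -0.12. ABCC10 and ABCE1 overlap genes on the other strand too, and since the sources used here do not say whether counting used strand, the reads of these 3 members are uncertain.

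ABCB6, ABCB8 and ABCB10 encode mitochondrial proteins and lay near 0 in sh-METTL3. ABCB10, which acts in haem synthesis, had 2521, 2882 and 3156 reads and changes of -0.14 (-0.22 to -0.06) and -0.02 (-0.09 to 0.06). ABCB8 had 1590, 1822 and 1896 reads and changes of -0.13 (-0.23 to -0.04) and -0.09 (-0.18 to 0.01). ABCB6, a porphyrin transporter, had 683, 822 and 698 reads and changes of -0.06 (-0.21 to 0.08) and -0.31 (-0.46 to -0.16), so it was lowest in the inhibitor library. The reads of ABCB6 are uncertain because its whole span of 9223 bases lies within ENSG00000284820 on the same strand.

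The members outside membrane transport differed little. ABCE1 had 7623, 9528 and 10943 reads and log2 changes of -0.01 (-0.05 to 0.03) in sh-METTL3 and 0.18 (0.14 to 0.22) with the inhibitor. ABCF1 had 4186, 5850 and 5790 reads and was a little above sh-CTL in both other libraries, at 0.15 (0.09 to 0.21) and 0.13 (0.07 to 0.18). ABCF2 (4915, 5469 and 6526 reads) and ABCF3 (2634, 2937 and 3299 reads) had log2 changes of -0.18 and -0.17 in sh-METTL3. ABCF2 shares its strand with the readthrough gene ABCF2-H2BE1, which had 2733, 2489 and 3537 reads of its own, so the split between them is uncertain. ABCF2 and ABCB8 lie on chromosome 7. The median log2 change of the 632 genes listed there (mean of 50 or more) was -0.25 in sh-METTL3, lower than either member.

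ABCD3 and ABCD4 had log2 changes above 0 in sh-METTL3. ABCD3 had 3528, 5335 and 4470 reads and log2 changes of 0.27 (0.20 to 0.33) and 0.00 (-0.06 to 0.06). ABCD4, which acts in the release of cobalamin from lysosomes, had 1074, 1449 and 1225 reads and 0.10 (-0.01 to 0.22) and -0.15 (-0.27 to -0.03). ABCD4 shares 5299 bases with ENSG00000258559 on its strand and is uncertain. Of this pair, ABCD3 alone lay outside counting error in sh-METTL3. ABCG4, a sterol exporter of neural cells, had 51, 50 and 67 reads, and its intervals included 0 in both comparisons.

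**Figure D3:**
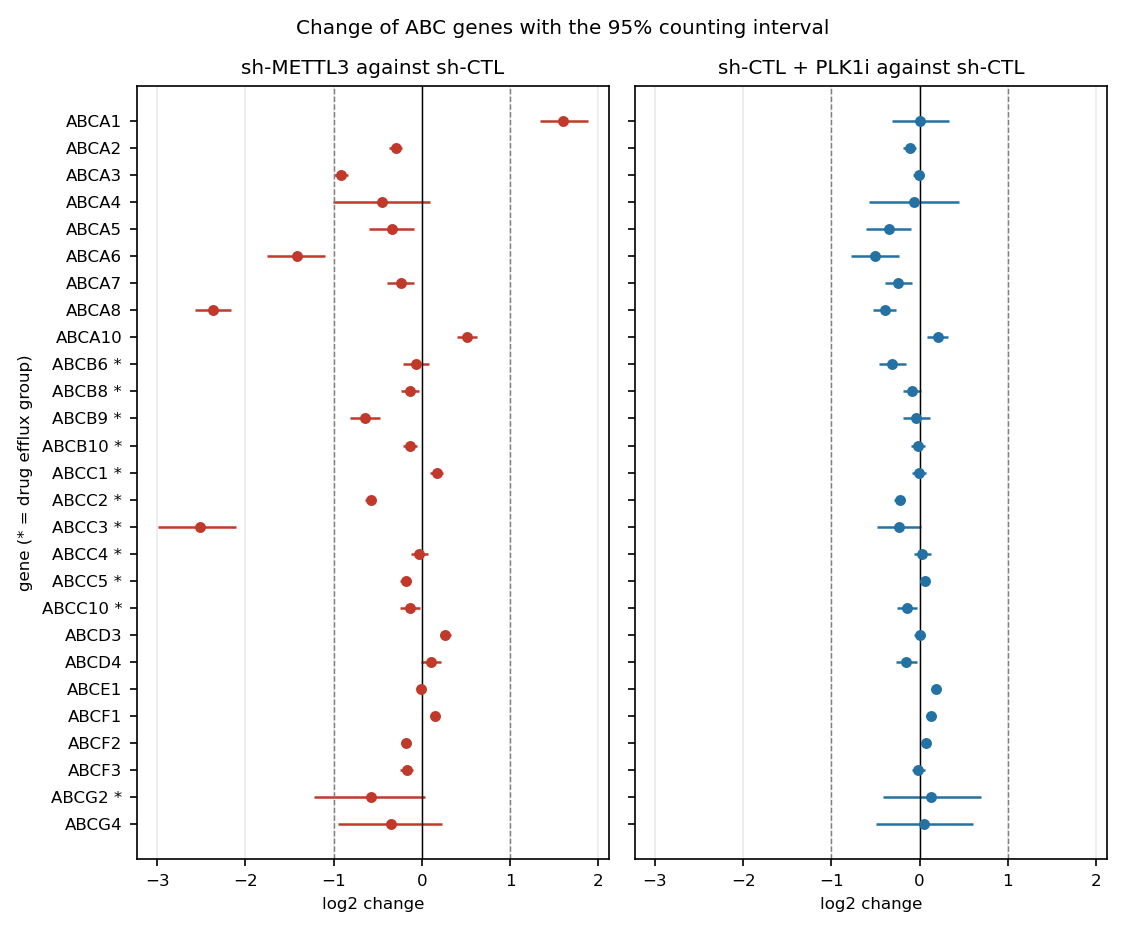
Log2 change of 27 ABC genes in sh-METTL3 (left) and sh-CTL + PLK1i (right) against sh-CTL, 1 library per group, with lines for the 95% counting interval, dashed lines at a 2-fold change and asterisks on the drug efflux group. ABCA1 (1.60) lies beyond the upper dashed line and ABCC3 (-2.51), ABCA8 (-2.36) and ABCA6 (-1.42) beyond the lower one in sh-METTL3, and no gene drawn lies beyond either line in sh-CTL + PLK1i.

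The second question was how the same genes stood after 24 h of the PLK1 inhibitor. No member was 2-fold higher or lower, where 1.39% and 1.13% of all listed genes were. None was 1.5-fold higher or lower, where 3.97% and 4.01% were. Among listed genes with a mean within the range of the family, 0.476% and 0.242% passed 2-fold, and 1.90% and 1.93% passed 1.5-fold. ABCA6 was the lowest, at -0.50, followed by ABCA8 at -0.40, ABCA5 at -0.35 and ABCB6 at -0.31, and each had an interval below 0. ABCA10 at 0.20 and ABCE1 at 0.18 were the highest. The median log2 change was -0.06 in the drug efflux group, with 3 above 0 and 9 below, and -0.02 in the rest, with 7 above and 10 below. In sh-METTL3, 5 members lay outside the range that holds the middle 90% of all listed genes (-0.71 to 0.78), and in sh-CTL + PLK1i 0 members did (-0.54 to 0.51).

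**Figure D4:**
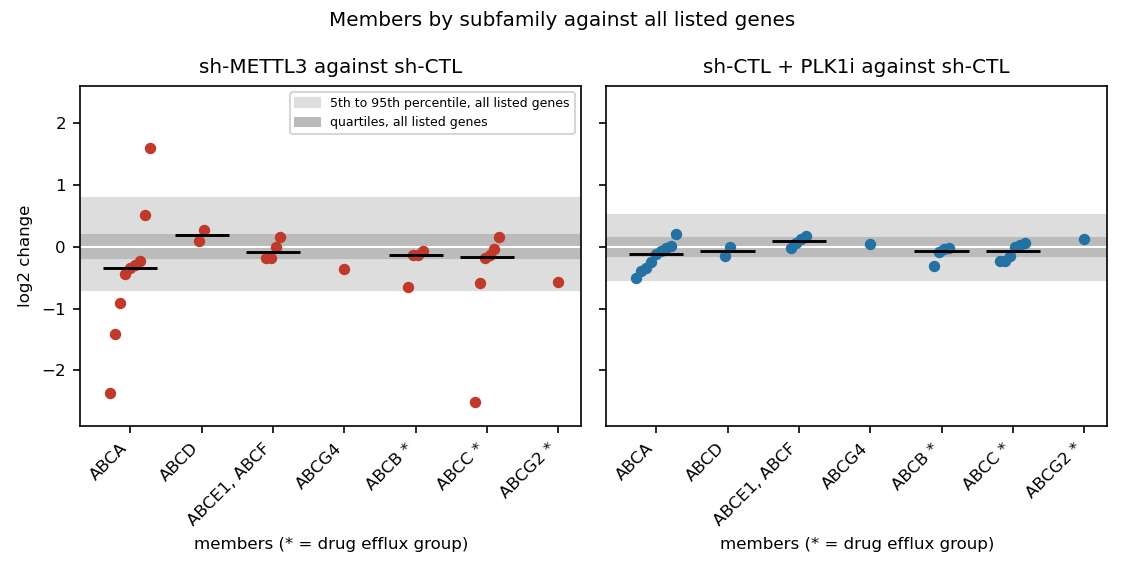
Log2 change of 27 ABC genes by subfamily in sh-METTL3 (left) and sh-CTL + PLK1i (right) against sh-CTL, 1 point per gene, with black lines at the medians of the genes drawn and grey bands for the quartiles and the 5th to 95th percentile of all 14949 listed genes. The ABCA genes spread most in sh-METTL3, from -2.36 to 1.60, and all genes drawn lie inside the wider band in sh-CTL + PLK1i.

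Set directly against sh-CTL + PLK1i, sh-METTL3 had 1 of 29 members at least 2-fold higher, where 3.87% of all listed genes were, and 2 of 29 at least 2-fold lower, where 3.59% were. ABCA1 was higher, at 1.59 (1.36 to 1.85), and ABCC3 and ABCA8 were lower, at -2.28 (-2.75 to -1.88) and -1.97 (-2.18 to -1.77). ABCA6 and ABCA3 followed at -0.91 (-1.26 to -0.58) and -0.90 (-0.98 to -0.83). ABCG2 was lower too, at -0.71 (-1.32 to -0.14), from 41 against 68 reads. This comparison leaves out the sh-CTL library and shares the sh-METTL3 library with the first.

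Some markers of other cell types moved with the lower members. The fibroblast list had 2 of its 3 genes listed, and their summed normalized counts were 654 in the control library, 48.2 in the knockdown and 412 in the inhibitor library, while the defining marker DCN had no row used here. COL3A1 had 527, 46 and 411 reads and COL1A1, which lies within 500 kb of ABCC3, had 34, 6 and 36, and neither was at 0. After normalization the order of the libraries was that of ABCA8 and ABCA6, but also of ABCC3, ABCA3, ABCB9, ABCC2 and other members. This order therefore does not set ABCA8 and ABCA6 apart, and members such as ABCA1 and ABCC1 had another order. The mesenchymal list, with 2 of 4 genes listed, summed to 247681, 188683 and 250260, nearly all of it VIM, while ZEB1 stood the other way with a log2 change of 0.25 (0.18 to 0.32) in sh-METTL3. The epithelial list, with 3 of 5, summed to 151510, 182424 and 141582. The immune list had only CD68 listed of 3 genes, at 1755, 3243 and 2647 normalized counts. The part of these markers in the changes of ABC genes was not tested.

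Related genes were counted from 8 lists, which hold 118 listed genes. In sh-METTL3, 1 was at least 2-fold higher and 0 lower, and at 1.5-fold 4 were higher and 2 lower. As shares these were 0.847%, 0%, 3.39% and 1.69%, each below that of all listed genes (3.42%, 2.94%, 7.76% and 6.70%). In sh-CTL + PLK1i, 0 passed 2-fold, and at 1.5-fold 1 was higher and 1 lower, or 0.847% each. All listed genes had 1.39% and 1.13% at 2-fold, and 3.97% and 4.01% at 1.5-fold. Those with a mean within the range of the ABC family had 0.476% and 0.242% at 2-fold, and 1.90% and 1.93% at 1.5-fold. Counts of 0 or 1 gene are too few to set the lists apart from these shares. Among the transporters, TAP1, the peptide transporter of antigen presentation and an ABC protein with another kind of symbol, had 832, 1908 and 1139 reads and a log2 change of 0.87 (0.75 to 0.99) in sh-METTL3. Its partner TAP2 had 1866, 3186 and 2794 reads and a change of 0.44 (0.36 to 0.52). The solute carriers of drug uptake, with 11 of 21 listed, had a median of -0.03, and SLC22A5, the carnitine carrier, was lower at -0.78 (-0.96 to -0.60), from 583, 427 and 605 reads.

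The sterol list, with 15 of 17 listed, had a median log2 change of -0.00 in sh-METTL3 and -0.05 with the inhibitor, and its highest value in sh-METTL3 was 0.65. NR1H2 and NR1H3, the sterol receptors that activate ABCA1, had -0.17 (-0.29 to -0.05) and 0.16 (-0.06 to 0.37) in sh-METTL3. MYLIP, another target of these receptors, had 221, 436 and 395 reads and log2 changes of 0.65 (0.41 to 0.89) and 0.50 (0.26 to 0.74). MLXIPL had 159, 128 and 187 reads and -0.64 (-0.99 to -0.30) in sh-METTL3. APOE, with 12, 18 and 27 reads, was past 1.5-fold in sh-CTL + PLK1i at 0.79, but its interval of -0.20 to 1.94 included 0.

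The regulators of drug pumps, with 13 of 18 listed, had medians of -0.18 and -0.06 and none past 1.5-fold. The genes of glutathione and phase II metabolism, with 23 of 26 listed, had medians of 0.03 and 0.04. Among them MGST2, a microsomal glutathione transferase, had 298, 595 and 326 reads and a log2 change of 0.66 (0.46 to 0.87) in sh-METTL3. GSTA4, another glutathione transferase, had 887, 1004 and 725 reads and -0.63 (-0.78 to -0.49) in sh-CTL + PLK1i. The peroxisome list, all 16 listed, had medians of -0.02 and -0.01, and ACOX2, an oxidase of branched-chain and bile acid precursors, was the gene past 2-fold, with 243, 678 and 353 reads and 1.15 (0.94 to 1.37) in sh-METTL3. The iron-sulfur and haem list, all 22 listed, had medians of 0.02 and -0.04, and the ribosome recycling list, all 16 listed, had -0.08 and 0.06.

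The pentamer GGACT, a common form of the m6A motif, was counted in the Ensembl canonical transcript of each member. The family had a median of 0.727 per kb, from 0 in ABCE1 to 2.68 in ABCB6, against 0.922 over the 14789 listed genes with a transcript. ABCC3 held 1.41 per kb, ABCA6 0.752, ABCA8 0.666 and ABCA1 0.480, so members with large changes stood on both sides of the family median. Across the 29 members, Spearman's rho between GGACT per kb and the log2 change in sh-METTL3 was -0.15, with 0.52 in the 12 drug efflux members and -0.48 in the 17 others, and across all listed genes it was -0.01. These are descriptions across genes, which share the same libraries and are not independent replicates, and methylation was not measured in these libraries.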

How the data were processed

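RNA from MIAPaCa-2 cells was sequenced by the authors from stranded, poly(A)-selected libraries. Per the submitters' processing notes, FastQC 0.11.9, STAR 2.7.10 and RSEM 1.3.3 were used with hg19. The authors deposited 1 table of log2 values for 14949 genes, and the tool that normalized them is not given in the sources used here. The deposited log2 values were undone and an offset of 4 was subtracted, after which 1 read was worth 1.17 (sh-CTL), 0.927 (sh-METTL3) and 0.921 (sh-CTL + PLK1i). Division by these steps gave whole reads (within 0.1) for 100% of values below 2000 reads. Depth was 37449329 to 47727518 reads in listed genes.

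The members and gene lists were chosen with earlier results of these data known. Named members were all of the drug efflux group, others past 1.5-fold with an interval without 0, and the 5 highest per kb, with a line on each of the rest. The single values of 2 members are not reported here, and counts and medians include them. Named genes of the lists were those past 1.5-fold and, beyond that rule and after their values were seen, TAP2, NR1H2 and NR1H3. The limits for a higher or lower gene were a fold of 2 and a fold of 1.5, with a pseudocount of 1. A mean normalized count of at least 1 was required, which left out no gene (smallest mean 7.72). No count test was run on the recovered reads, because 1 library per group leaves no replicates.

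Positions and Ensembl canonical transcripts came from GENCODE 44 on GRCh37 (14858 identifiers matched, all 29 members among them) and promoters from RefSeq on GRCh38.p14. Reads of ABCA3, ABCB10 and ABCF2 may be shared with annotated pseudogenes, none of which was listed. Alternatives were other pseudocounts, scalings by trimmed mean of M-values, total reads and upper quartile, filters and group definitions. Intervals and calls were tested on simulated data in which libraries differed by counting error and set changes alone. That simulation does not cover the spread between cultures. Python 3.11.15, numpy 2.4.6, pandas 2.3.3, scipy 1.17.1 and matplotlib 3.10.9 were used.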

Additional observations from a re-analysis of the deposited data

How the results depend on the processing

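Among members whose mean normalized count was 200 or more, 1 member (ABCA8) in place of 3 was at least 2-fold lower in sh-METTL3 against sh-CTL, and 1 in place of 2 against sh-CTL + PLK1i, because ABCA6 and ABCC3 have lower means. The share of all listed genes under that filter is not given here. At a fold of 1.5 and without that filter the counts were 5 and 6, where 6.70% and 8.36% of all listed genes were lower. The drug efflux group had a mean log2 change of -0.40 in sh-METTL3 where its median was -0.14, since ABCC3 alone was at -2.51. Over 544 alternative values, 539 stayed the same in direction and side of the fold limit or within the tolerance, 5 moved and 0 reversed. Of the 544, 396 were changes of single members, which a filter on the mean cannot alter, so part of this total could not move. All 5 moves fell among the other 148 values, which were counts and medians of groups. Among changes within counting error of 0, the sign of ABCE1 in sh-METTL3 and of ABCA1 and ABCD3 in sh-CTL + PLK1i depended on the scaling. Taking members from symbols without an appended identifier was chosen after seeing the data and left out ABCA3, ABCC5 and ABCE1. No paired analysis was possible because each group holds 1 library and the labels give no replicate numbers, and for the same reason no library could be left out. Depth limits ABCA4, ABCG2 and ABCG4, which had 41 to 74 reads in each library.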
